A study of Mus musculus with 22 samples.

Results

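The TGF-beta ligands, receptors and Smads were followed as 10 genes in FE1 lung epithelial cells exposed to carbon nanotubes. The members were the ligands Tgfb1, Tgfb2 and Tgfb3, the receptors Tgfbr1, Tgfbr2 and Tgfbr3, the signal carriers Smad2 and Smad3, the inhibitor Smad7 and the latency protein Ltbp1. Each was chosen by name and found through the transcript accession of its array probes. All 10 were found among the 20018 genes that could be named on the array, by 14 probes. Tgfb2, Tgfbr1, Tgfbr2 and Smad3 had 2 probes each, and the other 6 members had 1. A gene is described by its brightest probe, and the other probe of a member is given beside it. All 10 members passed the detection filter in every comparison, which required signal above the negative control spots on at least 4 arrays of either group.

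FE1 is an established epithelial line derived from the lung of the transgenic Muta Mouse, and is a single line grown with epidermal growth factor in the medium. The multi-walled carbon nanotube Mitsui7 was given for 24 h. Control cells received 0 µg/ml and were read on 5 arrays. The low dose was 12.5 µg/ml on 6 arrays, the medium dose 25 µg/ml on 5 and the high dose 100 µg/ml on 6, which makes 22 arrays. On every array the sample carried the dye Cy5 and the same commercial pool of mouse reference RNA carried Cy3, so a level is given as log2 of sample over reference, and a change is a difference between 2 such levels. The dyes were not swapped. The 3 doses were compared with the same 5 control arrays, so the comparisons with control are not independent of each other. Exposures were made in 3 separate experiments according to the methods and as 3 exposures per dose and day according to the labels, so that some of the 5 or 6 arrays of a group may share an experiment or a day. Which arrays do is not known. Each array is treated as a replicate, and p-values then measure only the spread between these arrays, part of which may be technical. The arrays lay on 5 slides, of which slide 5 had no control array, and slide was a term of the model. Over 28914 probes, 16 of 22 arrays correlated best with the other arrays of their own group. Low dose replicate 1 and medium dose replicate 2 were the arrays that went against their labels most, with correlations of -0.33 and -0.31 with the mean of their own groups. The first correlated best with the medium dose (0.46) and the second with the low dose (0.12). Whether their labels were exchanged was not tested, the labels were kept, and the calls are also given without both.

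TGF-beta is secreted as an inactive complex with its own propeptide, and latent TGF-beta binding proteins such as Ltbp1 tether that complex to the extracellular matrix. Once released, the ligand binds the type II receptor (Tgfbr2), which activates the type I receptor (Tgfbr1), while the co-receptor betaglycan (Tgfbr3) presents ligand, above all TGF-beta 2. The activated receptor phosphorylates Smad2 and Smad3, which enter the nucleus with Smad4, and the pathway is known in the lung for its part in growth arrest of epithelium, matrix deposition and fibrosis.

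Promoter sequence from RefSeq (GRCm38.p6) was at hand for 6 of the 10 members, in 8 entries, and not for Tgfb3, Tgfbr3, Smad2 or Smad7. The array itself was annotated on another build, so no array coordinates are given. The 250 bases before the start of Tgfb2 and of Tgfb1 are shown because these sister ligands behaved differently on the arrays, Tgfb2 being called at every dose and Tgfb1 at none. The Tgfb2 stretch lies at chr1:186705990-186706239 on the minus strand and that of Tgfb1 at chr7:25686752-25687001 on the plus strand, both written 5′ to 3′ and ending at the base before the gene start. Capitals mark matches on either strand to the E-box CACGTG, the Sp1 motif GGGCGG, the core promoter motif TATAAA, the AP-1 motif TGANTCA, the cyclic AMP response motif TGACG or the short Smad-binding motif CAGAC, and no match overlaps another here.
Tgfb2: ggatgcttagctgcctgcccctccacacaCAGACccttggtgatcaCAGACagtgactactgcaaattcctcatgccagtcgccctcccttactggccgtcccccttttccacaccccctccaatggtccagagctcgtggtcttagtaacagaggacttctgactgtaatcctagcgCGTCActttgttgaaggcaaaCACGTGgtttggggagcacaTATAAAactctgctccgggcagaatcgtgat
Tgfb1: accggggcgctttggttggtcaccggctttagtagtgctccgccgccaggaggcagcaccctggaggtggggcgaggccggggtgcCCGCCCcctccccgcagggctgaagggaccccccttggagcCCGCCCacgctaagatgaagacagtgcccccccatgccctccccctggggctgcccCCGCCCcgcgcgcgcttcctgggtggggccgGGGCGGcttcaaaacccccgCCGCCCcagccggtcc
The Tgfb2 stretch held 1 CACGTG beginning at position -51, 1 TATAAA at -31, 1 TGACG match at -72 and 2 CAGAC matches, and no GGGCGG. The Tgfb1 stretch held 5 GGGCGG matches and none of the other motifs, with a GC content of 75.2% against 53.6% for Tgfb2. Among all 32851 promoter stretches of this length, 6.02% held CACGTG, 12.4% TATAAA, 17.8% TGACG, 42.2% CAGAC, 6.75% TGANTCA and 32.7% GGGCGG. A match is a description of the letters and not of a bound site.

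Of the 10 members, 2 were down-regulated at the low dose, 3 at the medium dose and 3 at the high dose, and none was up-regulated at any dose. A call required an adjusted p of at most 0.05 by limma over all probes together with a change of at least 1.5-fold. Every dosed array lay below every control array for 3 members at the low dose, 3 at the medium dose and 4 at the high dose. Over all detected genes this held for 2.58%, 4.87% and 5.73% in order of dose. The members called were Tgfb2 and Tgfbr3 at all 3 doses, joined by Tgfb3 at the medium and high dose. Over all detected genes, 3% were called lower at the low dose, 4.63% at the medium dose and 6.4% at the high dose. The share called higher was 2.17%, 4.22% and 5.44%, respectively. In order of dose, the median change of the 10 members was -0.155, -0.191 and -0.152 on the log2 scale, beside medians within 0.01 of 0 over all detected genes. In these bulk samples, less RNA per cell and fewer cells that express a gene cannot be told apart.

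**Figure D1:**
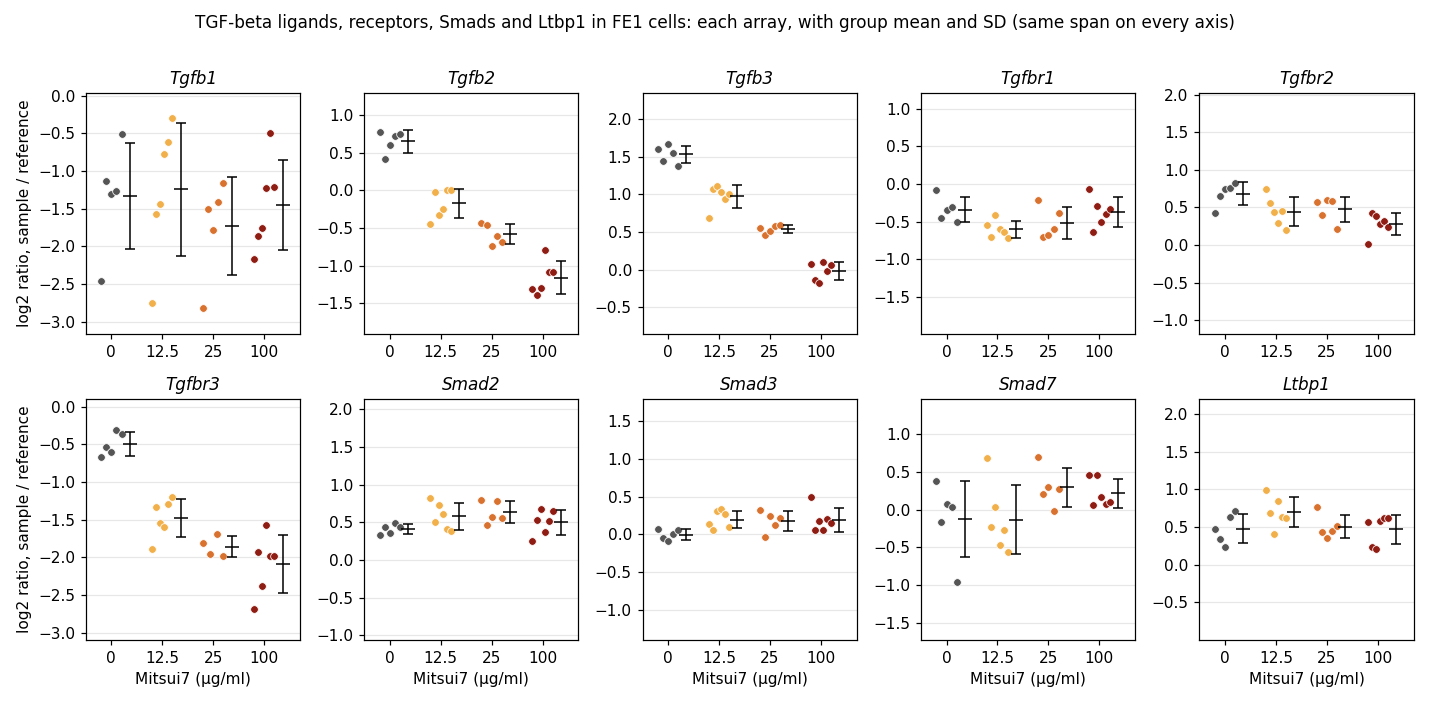
Level of each member (log2 ratio of sample to reference, y axis, the same span in each panel) on each array against the dose of Mitsui7 in µg/ml (x axis). Points are arrays and black bars the mean and SD of 5, 6, 5 and 6 arrays (4 at the medium dose for Tgfbr3). Tgfb2, Tgfb3 and Tgfbr3 lay below every control array at all 3 doses, whereas the Smads, Tgfbr1, Tgfb1 and Ltbp1 overlapped with control.

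Among the ligands, Tgfb2 and Tgfb3 were down-regulated with dose, and Tgfb1 was not called. Tgfb2, the isoform that depends most on betaglycan for binding, had log2 ratios of 0.77, 0.41, 0.59, 0.72 and 0.75 on the control arrays. At the low dose the ratios ran from -0.45 to 0.0049 with a median of -0.14. The medium dose arrays gave -0.44, -0.46, -0.74, -0.60 and -0.69, and the high dose arrays ran from -1.39 to -0.79 with a median of -1.19. No dosed array reached the lowest control array, and every high dose array lay below every medium dose array. Relative to control, Tgfb2 changed by -0.85, -1.24 and -1.84 on the log2 scale in order of dose (SE 0.11 in each case), the last of these a 3.57-fold decrease. The adjusted p-values by limma were 7.82e-05, 8.27e-07 and 1.45e-09, respectively.

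The other Tgfb2 probe gave the same direction, with changes of -1.09, -1.34 and -1.68 (SE 0.10 in each case), all called by limma. In it, too, every dosed array lay below every control array. Within slides the brightest Tgfb2 probe was lower than control in all 4 slides that held both groups at every dose, with differences from -0.97 to -0.74, from -1.44 to -1.04 and from -1.94 to -1.52 in order of dose.

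Tgfb3 is the isoform known for its part in palate and lung development. Its control arrays read 1.61, 1.45, 1.67, 1.55 and 1.38. The low dose arrays ran from 0.69 to 1.12 with a median of 1.02, the medium dose arrays read 0.56, 0.47, 0.52, 0.58 and 0.59, and the high dose arrays ran from -0.18 to 0.10 with a median of 0.02. The 4 groups did not overlap at all, each dose lying wholly below the one before it. Over all detected genes, the medium dose lay wholly below the low dose for 0.201%, the high dose wholly below the medium dose for 0.297% and the high dose wholly below the low dose for 0.533%. At the low dose the change was -0.55 ± 0.09 (SE) on the log2 scale, which had an adjusted p of 0.000774 by limma but was 1.46-fold and thus short of the fold threshold. The medium dose change was -0.99 ± 0.09 with an adjusted p of 9.11e-07 by limma. The high dose change was -1.54 ± 0.09 with an adjusted p of 9.73e-10, a 2.91-fold decrease. With median centring the medium dose change was not called (adjusted p of 0.0735 by limma). Within slides the difference was negative in 4 of 4 slides at each dose and ran from -1.85 to -1.31 at the high dose.

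Tgfb1, the isoform most often tied to fibrosis, was far more variable between arrays than the other ligands. Its control arrays read -2.46, -1.13, -1.31, -1.27 and -0.51, and the high dose arrays ran from -2.17 to -0.50 with a median of -1.49, so that the groups overlapped almost fully. The lowest value of each group was replicate 1, in all 4 cases on slide 1. In order of dose the change from control was -0.07 (95% interval -0.60 to 0.47), -0.40 (-0.95 to 0.14) and -0.28 (-0.81 to 0.26). None was called by limma, with adjusted p-values from 0.545 to 0.948, and at each dose the interval includes a 1.5-fold decrease, which is 0.585 on the log2 scale. Within slides the Tgfb1 difference was negative in 4 of 4 slides at the medium dose (-0.65 to -0.14), in 3 of 4 at the high dose (-0.70 to 0.05) and in 2 of 4 at the low dose. With the replicate number as a block, which pairs the arrays, the medium dose change was -0.40 ± 0.16 (SE) and still not called (adjusted p of 0.171 by limma).

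Doses were also compared with each other for the members. From the low to the high dose, 2 of 10 members were called, Tgfb2 and Tgfb3, both lower at the high dose, where 0.435% of all detected genes were called in either direction. Tgfb3 differed by -0.99 ± 0.08 (SE) on the log2 scale with an adjusted p of 9.89e-06 by limma, the smallest adjusted p of all probes in that comparison. Tgfb2 differed by -0.99 ± 0.10 with an adjusted p of 0.000133, and its other probe by -0.59 ± 0.09 with an adjusted p of 0.00683, both called. No member was called between the low and medium dose or between the medium and high dose, where 0% of all detected genes were called. At an unadjusted p under 0.05, limma gave 3 of 10 members and 3170 of 55681 probes between low and medium dose, and 2 of 10 members and 2313 probes between medium and high dose. These probe counts run over all probes, of which 33513 were detected in any group, whereas all 10 members were detected. When each array was centred on its median instead of normalised by loess, no member was called between the low and the high dose.

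**Figure D2:**
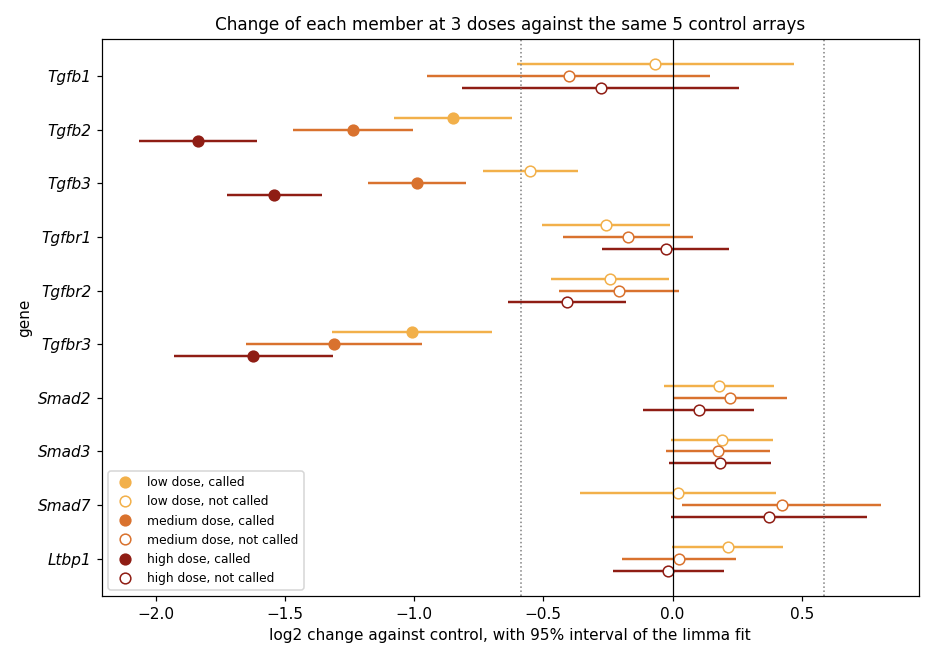
Change of each member against control on the log2 scale (x axis) by gene (y axis), with the 95% interval of the limma fit. Colours are the 3 doses, filled points are called, open points are not, and dotted lines mark 1.5-fold. Tgfb2, Tgfb3 and Tgfbr3 step down from the low to the high dose (Tgfb2 from -0.85 to -1.84), and the open points of the Smads lie at or above 0.

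Among the receptors, Tgfbr3 was down-regulated at every dose, whereas Tgfbr1 and Tgfbr2 were not called. Tgfbr3, or betaglycan, is the co-receptor without a kinase. Its control arrays read -0.67, -0.54, -0.61, -0.31 and -0.36. The low dose arrays ran from -1.89 to -1.20 with a median of -1.45, the medium dose arrays read -1.81, -1.96, -1.69 and -1.99, and the high dose arrays ran from -2.68 to -1.57 with a median of -1.99. On medium dose replicate 4 the spot was marked as an outlier and left out, so that 4 arrays entered the fit for that dose. All dosed arrays lay below all control arrays, while the 3 doses overlapped with each other. Tgfbr3 fell by 1.01 ± 0.15 (SE), 1.31 ± 0.16 and 1.62 ± 0.15 on the log2 scale, with adjusted p-values of 0.000369, 4.11e-05 and 5.15e-07 by limma. The high dose differed from the low dose by -0.61 ± 0.14, which was not called (adjusted p of 0.0707 by limma). With the replicate number in place of slide as a block, that comparison was called, and so it was without low dose replicate 1, without low dose replicate 4 or without high dose replicate 4.

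Tgfbr2, the type II receptor that binds ligand first, had control values of 0.43, 0.66, 0.75, 0.75 and 0.83. At the high dose the arrays ran from 0.02 to 0.42 with a median of 0.30, so that all 6 lay below the lowest control array, although that array and the highest high dose array differed by less than 0.01. The change was -0.41 ± 0.11 (SE) with an adjusted p of 0.0207 by limma, but at 1.33-fold it did not reach the fold threshold and was not called. At the low dose the change was -0.24 ± 0.11 and at the medium dose -0.21 ± 0.11, with adjusted p-values of 0.316 and 0.41 (limma) and groups that overlapped with control. The other Tgfbr2 probe gave a smaller change at the high dose, its changes being -0.12, -0.27 and -0.06 (SE 0.10 in each case), of which limma called none.

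Tgfbr1, the type I receptor kinase, had control values of -0.08, -0.45, -0.35, -0.30 and -0.51, and high dose values from -0.64 to -0.06 with a median of -0.37. In order of dose its changes were -0.26 (95% interval -0.50 to -0.01), -0.17 (-0.43 to 0.08) and -0.03 (-0.27 to 0.22), none called by limma, and the high dose interval leaves out a 1.5-fold change in either direction. The other Tgfbr1 probe was dim, being detected on 4 of 5 control arrays, 1 of 6 low dose arrays and none of the medium or high dose arrays, and its changes of 0.01, -0.07 and -0.02 were not called. It has no value on low dose replicate 3, the only low dose array on which it was detected.

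**Figure D3:**
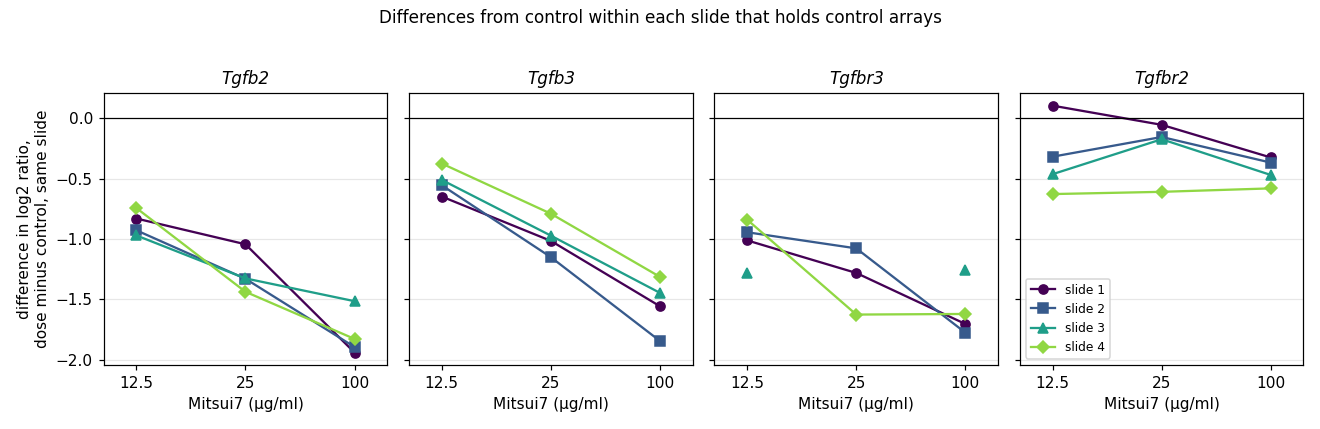
Difference in log2 ratio between dosed and control arrays on the same slide (y axis) against the dose in µg/ml (x axis), with a line per slide for the 4 slides that held control arrays. Tgfb2, Tgfb3 and Tgfbr3 lie below 0 on every slide (Tgfb2 between -1.94 and -1.52 at the high dose), and slide 3 has no medium dose value for Tgfbr3. Tgfbr2 ranged from -0.63 to 0.11 at the low dose.

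Among the Smads, no member was called at any dose. Smad2, a receptor-regulated Smad, read 0.34, 0.44, 0.36, 0.50 and 0.44 on the control arrays, and from 0.26 to 0.68 with a median of 0.52 at the high dose, which enclosed the control range. Its changes were 0.18 ± 0.10 (SE), 0.22 ± 0.10 and 0.10 ± 0.10, with adjusted p-values of 0.481, 0.312 and 0.74 (limma). Smad3, the other receptor-regulated Smad and the one that binds DNA directly, read 0.06, -0.05, -0.10, 0.0052 and 0.06 on the control arrays. Its high dose arrays ran from 0.05 to 0.49 with a median of 0.16, and 4 of 6 lay above every control array. The changes of Smad3 were 0.19 ± 0.09, 0.18 ± 0.10 and 0.18 ± 0.09, with adjusted p-values of 0.383, 0.429 and 0.343 (limma), and the intervals leave out a change of 1.5-fold in either direction at all 3 doses. The other Smad3 probe gave 0.13, 0.08 and 0.07 (SE 0.14 in each case), again not called, and had no value on slide 3.

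Smad7, which is induced by TGF-beta and shuts off its receptors, read 0.37, -0.16, 0.07, 0.04 and -0.97 on the control arrays, control replicate 5 being the lowest by far. The low dose arrays ran from -0.56 to 0.69 with a median of -0.25, the medium dose arrays read 0.70, 0.20, 0.30, -0.01 and 0.27, and the high dose arrays ran from 0.05 to 0.46 with a median of 0.13. These ranges overlapped with control. Its changes were 0.02 ± 0.18 (SE), 0.42 ± 0.18 and 0.37 ± 0.18, with adjusted p-values of 0.978, 0.264 and 0.293 (limma), and at the medium and high dose the intervals reach past 1.5-fold upwards.

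Ltbp1, which anchors latent TGF-beta in the matrix, read 0.47, 0.34, 0.24, 0.63 and 0.72 on the control arrays and from 0.21 to 0.62 with a median of 0.57 at the high dose. Its changes were 0.21 (95% interval -0.00127 to 0.43), 0.02 (-0.19 to 0.24) and -0.02 (-0.23 to 0.20), none called by limma, and all 3 intervals leave out a 1.5-fold change in either direction. Of the 10 members, 3 were thus called lower at 2 or more doses and 7 at none.

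Low dose replicate 1 had the lowest Tgfb2, Tgfb3 and Tgfbr3 ratio of the 6 low dose arrays. Without it and medium dose replicate 2, limma called 2 members at the low dose (Tgfb2 and Tgfbr3) and the same 3 members as before at the other doses. From the low to the high dose 3 members were then called, Tgfbr3 beside Tgfb2 and Tgfb3. Over 42 alternative settings, Tgfb2, Tgfb3 and Tgfbr3 were each called at the high dose in all 42. Of these settings, 22 left out 1 array and 5 left out 1 slide, and the data were otherwise processed as before.

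The genes most like Tgfb2 and Tgfb3 over the 22 arrays were found by Pearson's r of slide-adjusted log2 ratios among 9065 other genes measured and detected on all arrays. Tgfb3 was the gene most like Tgfb2 (r = 0.972), followed by Sipa1l2 (0.968), Selenos (0.966), Maf (0.965) and Lsp1 (0.963). For Tgfb3 the order was Sipa1l2 (r = 0.977), Pdgfrl (0.974), Tgfb2 (0.972), Fbn1 (0.96) and Synpo (0.953). All of these genes had lower levels at the high dose than in control, with changes from -2.19 for Pdgfrl to -0.945 for Fbn1 on the log2 scale. The differences between dose groups enter these values, and after removal of group and slide means the correlations were lower, at 0.432 for Tgfb2 with Tgfb3 and 0.769 for Tgfb3 with Sipa1l2. They are given as descriptions, and the arrays share slides and the control group.

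Other genes of the pathway were taken from 6 lists, 95 genes in all. At the high dose, of 86 detected, 13 were called lower and 10 higher, and their median change was 0.04, beside shares of 6.4% lower and 5.44% higher over all detected genes. At the low dose 6 of 89 were called lower and 7 higher, beside shares of 3% and 2.17% over all detected genes. At the medium dose 9 of 86 were called lower and 9 higher, beside shares of 4.63% and 4.22%.

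Of the ligand latency and activation genes, 4 of 11 detected were called lower at the high dose and none higher. The shares over all detected genes were 6.4% and 5.44%, and the median change of the list was -0.41. Ltbp2, a fibrillin-binding relative of Ltbp1, fell by 1.27 ± 0.11 (SE), Fbn1, the microfibril protein to which latent complexes bind, by 0.945 ± 0.08 and Emilin1, a matrix glycoprotein that restrains processing of the TGF-beta precursor, by 1.06 ± 0.24 (adjusted p of 1.87e-07, 2.18e-07 and 0.00611 by limma). Emilin1 was not called without the slide term. The fourth was Mmp2, a gelatinase that can release latent complexes, with a change of -0.83 ± 0.25 and an adjusted p of 0.0462 (limma). It lies outside the rule for named genes and was chosen after its values were seen, and it was called in 17 of 42 alternative settings.

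Of the other receptors and co-receptors, which include endoglin and the activin and BMP receptors, none of 10 detected was called at any dose by limma. Their high dose changes ran from -0.38 ± 0.22 (SE) for Eng, or endoglin, to 0.61 ± 0.35 for Bmpr1b, a type I BMP receptor. Both are named as the ends of the range, after their values were seen.

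Of the other Smads, 1 of 4 detected was called lower and 1 higher at the high dose. The shares over all detected genes were 6.4% and 5.44%. Smad6, an inhibitory Smad that mostly restrains BMP signalling, changed by -0.90, -1.01 and -1.49 in order of dose (SE 0.09, 0.10 and 0.09), with an adjusted p of 3.14e-09 by limma at the high dose and all 6 high dose arrays below every control array. Such a separation held for 5.73% of all detected genes. Smad1, a carrier of BMP signals, rose by 0.66 ± 0.11 at the high dose (adjusted p of 0.000349 by limma), while its other probe gave 0.30. With the mean of both Smad1 probes, the gene was not called, nor was it with median centring, without control replicate 1 or without slide 1. Smad4, the partner shared by all receptor-regulated Smads, had a change of 0.52 ± 0.15 at the high dose with an adjusted p of 0.0279 (limma) but at 1.44-fold was not called, and its other probe gave 0.21.

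Of the Smad partners and regulators, 3 of 21 detected were called higher at the high dose and none lower. The shares over all detected genes were 5.44% and 6.4%. Tgif1, a co-repressor of Smad transcription, rose by 1.14 ± 0.12 (SE), 1.33 ± 0.13 and 1.47 ± 0.12 at the 3 doses. At the high dose Hgs, an endosomal adaptor that helps present Smads to the receptor, rose by 0.88 ± 0.16, and Pmepa1, a membrane protein that is induced by TGF-beta and sequesters Smad2 and Smad3, rose by 0.87 ± 0.16 (adjusted p of 0.00122 and 0.00102 by limma). Hgs and Pmepa1 were not called with median centring, and Hgs was not called without the slide term.

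Of the related ligands and antagonists, 3 of 12 detected were called higher at the high dose and 1 lower. Beside these counts, 5.44% of all detected genes were called higher and 6.4% lower. Gdf15, a stress-induced distant relative of TGF-beta, rose by 1.40 ± 0.15 (SE), Nbl1, a secreted BMP antagonist, by 1.23 ± 0.11 and Inhba, the activin A subunit, by 0.78 ± 0.16. Lefty1, an antagonist of Nodal, fell by 0.90 ± 0.13 (adjusted p of 9.99e-05 by limma). With median centring Inhba was not called.

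Of the genes known to be induced by TGF-beta, 8 of 32 detected were called lower and 4 higher at the high dose. Beside these counts, 6.4% of all detected genes were called lower and 5.44% higher. The median change of the list was -0.21, and the direction of its called genes was mixed. Ccn2, or connective tissue growth factor, rose by 1.49 ± 0.16, 2.12 ± 0.16 and 2.10 ± 0.16. Pmepa1, described above, was also among the genes called higher. The 3 largest decreases were fibrillar collagens, Col3a1 by 1.70 ± 0.15, Col1a2 by 1.52 ± 0.16 and Col1a1 by 1.34 ± 0.16. All their high dose arrays lay below all control arrays, which held for 5.73% of all detected genes. A further 6 genes called at the high dose, named after their values were seen, were Cdkn1a, the cell cycle inhibitor p21, which was higher, and Ltbp2, Vcan, Postn, Loxl2 and Fn1, matrix genes that were lower by -1.27, -0.90, -0.86, -0.69 and -0.61. Ccn2 and the 3 collagens were called in all 42 alternative settings at the high dose, whereas Cdkn1a was called in 37, Loxl2 in 38, Vcan in 39 and Fn1 in 27. Cdkn1a was not called without control replicate 1, and Vcan was not called with median centring. Ccn2, the collagens, Tgfb2, Tgfb3 and Smad4 stand on a fibrosis pathway list that was filled from the significant genes of these same samples, and Smad6, Tgif1 and several of these genes were later picked from them for PCR, so their directions are not independent evidence.

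**Figure D4:**
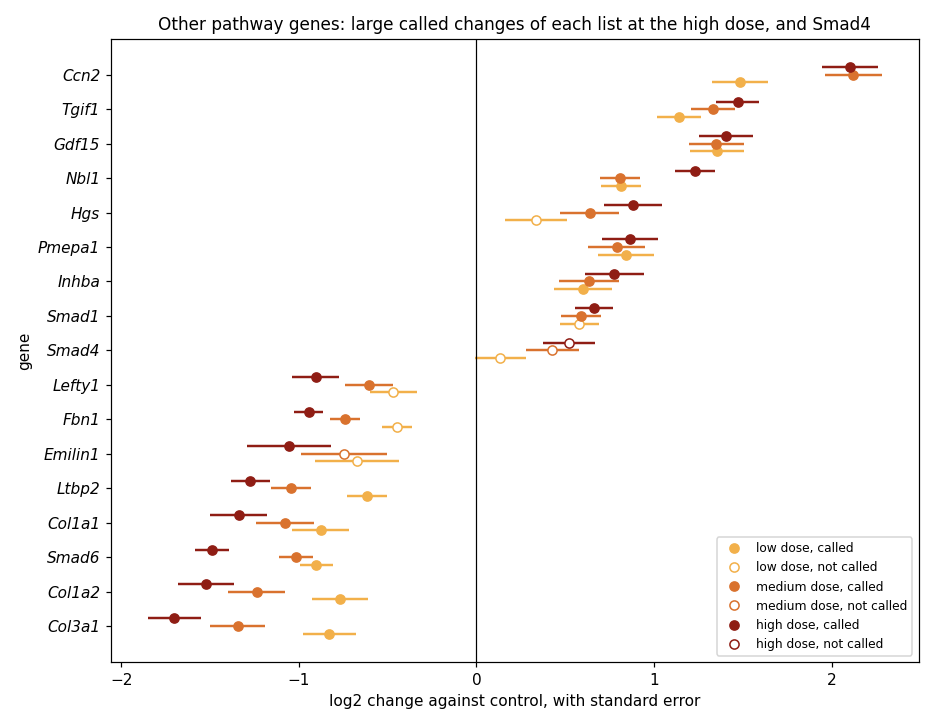
Change against control on the log2 scale (x axis) of other pathway genes described in the text (y axis), with the standard error of the limma fit; colours are the 3 doses, filled points called and open points not called. Ccn2, Tgif1 and Gdf15 lie highest (2.10, 1.47 and 1.40 at the high dose), and Smad6, Ltbp2 and the collagens lowest.

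The label of the cells was compared with defining markers on the control arrays. Of 7 epithelial markers, 5 were detected on at least 4 of 5 control arrays (Krt7, Krt8, Krt18, Krt19 and Cldn4), while Epcam was detected on 2 control arrays and Cdh1, or E-cadherin, on none. Of 7 mesenchymal markers 6 were detected, with Lum below that limit. Of these 6, 3 were called lower at the high dose, beside 6.4% of all detected genes. Tgfb2, Tgfb3 and Tgfbr3 were lower there too. Pdgfra, Pdgfrb and Dcn were called lower at the high dose by -1.53, -1.34 and -2.27 on the log2 scale, while Vim, Cdh2 and Thy1 were not called, with changes of 0.14, 0.04 and -0.02. The mean log2 ratio of the 6 detected genes ran from -1.02 to -0.61 in control. In order of dose it ran from -1.45 to -0.97, from -1.74 to -1.27 and from -2.02 to -1.38. For the 5 detected epithelial markers it ran from -3.35 to -2.67 in control and from -3.40 to -2.96 at the high dose, with Krt7 alone called (-0.85). Of the macrophage and leukocyte markers, 4 of the 4 on the array were detected, of the alveolar and airway secretory markers 3 of 8 and of the endothelial markers 2 of 4, and none of these was called at the high dose. Some detected markers were dim. The median control Cy5 signal was 98.5 for Cldn4, 114 for Ptprc and Adgre1 and 112 for Sftpd. The detection limit ran from 75.22 to 111.4 on the control arrays. Brighter ones included Csf1r (605.5), Itgam (12482), Pdpn (6007) and Kdr (4226). The part of these markers in the results was not tested. Vim and Cdh2 also stand on the list of genes known to be induced by TGF-beta.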

How the data were processed

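RNA of FE1 cells (Cy5) was hybridised with a common reference (Cy3) on 22 2-colour arrays. Per the file headers, the deposited signal intensities are median spot intensities from Feature Extraction 10.7.3.1, scanned on a G2505C at 3 µm and annotated on mm9, and the study's methods name another software version and scanner. The deposited scanner files also hold a log10 ratio that the software made from background-subtracted, dye-normalised signals and set to exactly 0 for 25.9% of spots. The authors also deposited a table of log2 values, whose normalization is not given in the sources used here, and its columns had medians from 0.00433 to 0.0267 and correlated with the ratios computed here at 0.869 or more.

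The intensities were used without background subtraction, as in the study's methods, and turned to log2(Cy5/Cy3) with loess within arrays (span 30%). Control spots (3671) and spots marked as outliers (0.401 to 6.22% per array) were left out of the ratios, and spots of 1 probe were combined by their median. Spots marked as outliers still counted for detection. Of 55681 probes, 26413 were named by accession through RefSeq. A probe was detected where Cy5 lay more than 3 trimmed SDs (5% trimmed) above the mean of 308 negative control spots, which held for 24185 to 38531 probes per array. Precision is set by how many arrays there are and by how many of them are independent, which is not known. A linear model with group and slide (from the array barcodes in the headers) was fitted to all probes and arrays with limma 3.58.1 in R 4.3.3, in place of the MAANOVA software of the study, and was tested on simulated data. Apart from slide, the simulated arrays were independent, so that test does not cover arrays that share an experiment or a day. The Benjamini-Hochberg adjustment ran over every probe.

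Arrays with the same replicate number deviated together from their group means (31 pairs, correlation 0.167 to 0.866). Most such arrays also shared a slide, and slide effects were not removed here, so these correlations cannot show whether the numbers pair the samples. A fit with the replicate number as a block was also made. Other alternatives were median centring, normexp (offset 50, on median signals), the software ratio, the authors' table, Cy5 alone, no slide term, other thresholds and filters, only the 2 groups compared, no variance moderation, the mean of all probes, and leaving out arrays or slides. Symbols from a gene name column were not tried, since the files used here have none.

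Members and gene lists were chosen with earlier results of these data known. Beside the members, up to 3 of the largest called increases and decreases of each list at the high dose, Smad4, Smad6 and the 5 genes most like Tgfb2 and Tgfb3 are named. A gene that the rule also names is not reported here, though it is part of the counts.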

Additional observations from a re-analysis of the deposited data

Results flagged for a closer look

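The Smad3 ratio of high dose replicate 1, at 0.49 on the log2 scale, lay apart from the other 5 high dose arrays, which ran from 0.0521 to 0.1986. It was the only such array among 40 groups of a member and a dose that were tested with Dixon's ratio (0.665 against a critical value of 0.625), a test that flags about 5% of groups by chance. Smad3 was not called by limma at the high dose with or without this array.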

How the results depend on the processing

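Calls of Tgfb2, Tgfb3 and Tgfbr3 at the high dose held in all 42 alternatives. With the replicate number as a block, limma called 2, 3 and 3 members against control in order of dose and 3 from the low to the high dose, where Tgfbr3 was added. Between the low and the high dose 0 members were called with median centring and 0 with a 2-fold threshold, which left 1 member at the low dose against control. Without slide 1, 0 members were called at the medium dose, since 3 arrays a group remain there and detection asks for 4. Leaving out 1 array at a time gave 2 to 3 members at the low dose, 3 at the medium and high dose, 2 to 3 from the low to the high dose, and 0 for the remaining pairs of doses. Changes that turned sign were all of members never called, and the cause was not tested. The low dose change of Smad7 was -0.044 with median centring, -0.016 with normexp, -0.22 with Cy5 alone, -0.0063 without the slide term, -0.12 without low dose replicate 1 and medium dose replicate 2, -0.018 without slide 1, -0.082 without slide 4 and -0.14 to 0.13 without single arrays. That of Tgfb1 was 0.40 with Cy5 alone, 0.091 without the slide term, 0.12 without those 2 arrays, 0.10 without slide 1 and -0.24 to 0.14 without single arrays, and its high dose change was 0.049 with Cy5 alone. The high dose change of Tgfbr1 was 0.0146 with the software ratio, 0.098 with the authors' table, 0.0148 without slide 1, 0.0143 without slide 3 and -0.095 to 0.049 without single arrays. That of Ltbp1 was 0.00194 with the software ratio, 0.00938 without slide 4 and -0.0627 to 0.0468 without single arrays, and its medium dose change was -0.0621 with Cy5 alone, -0.0871 without slide 1 and -0.0387 to 0.0756 without single arrays. The high dose change of Smad2 was -0.0477 with the authors' table. Dim probes limit what can be seen, since a second Tgfbr1 probe was detected on 0 high dose arrays.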
